A study of Homo sapiens with 7 samples.

Results

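The genes of HLA class I antigen presentation were followed through dasatinib dose escalation in K562, an established line of chronic myeloid leukemia cells with the BCR::ABL1 fusion. Members were taken by gene symbol or NCBI gene ID from the 25702 gene rows of the count table, and all 9 were found, namely HLA-B, HLA-C, HLA-E, HLA-F, B2M, TAP1, TAP2, TAPBP and NLRC5. RNA was sequenced from 7 K562 lines with 1 library per line. The controls were a drug naive line and a line cultured with the DMSO vehicle, both at 0 nM dasatinib. The dasatinib resistant (DasR) lines were grown in stepwise rising doses of dasatinib, a tyrosine kinase inhibitor of BCR::ABL1, and were sampled at 10, 15 and 25 nM (early stage) and at 50 and 200 nM (late stage). All 7 lines share the K562 background, and each is a culture that may be a mixture of cells. The DasR lines are successive stages of a dose escalation, so that they share a lineage and are not independent replicates, and p-values that treat them as such can be too small. The early and late stage groups are those of the study, which drew them from the clustering of the same 7 libraries.

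Total counts per library ranged from 20059656 in the 25 nM DasR line to 27844799 in the 15 nM DasR line. Lines of 1 group served as its replicates. The lines of a DasR group differ in dose and time in culture, which cannot be told apart from other spread between lines, and no line had a repeat library. Levels are given as CPM, counts scaled so that every library has the same total. In bulk RNA, fewer cells with a transcript and less of it per cell cannot be told apart. The labels call the cells erythroblasts, and all 13 erythroid markers examined were present, with the fetal globin gene HBG2 the most abundant. Among markers of other blood and stromal cells, the B cell gene MS4A1 was at or below 0.0359 CPM, the T cell gene CD8A at or below 0.0476 CPM, and the endothelial gene CDH5 at 0 counts in every line.

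HLA class I molecules display peptides from inside the cell to CD8+ T cells and are ligands for inhibitory receptors of natural killer (NK) cells. A heavy chain, encoded by the HLA genes, pairs with beta-2 microglobulin (B2M) in the endoplasmic reticulum and is loaded with a peptide that the transporter TAP1-TAP2 brings from the cytosol and that tapasin (TAPBP) helps to select. NLRC5 is the transactivator that joins the factors on class I promoters, and interferon induces most of these genes. K562 is known for very low surface class I and is a common target cell in NK cell assays.

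Of the 9 genes, NLRC5 rose and HLA-E and B2M fell in the early stage lines, and TAP1 fell in the late stage lines, at an FDR below 0.005. HLA-B and HLA-C stood near their control levels in the early stage lines and were lowest in the late stage lines, with differences that did not pass that threshold. Tests used edgeR's quasi-likelihood fit over all 7 libraries with Benjamini-Hochberg adjustment on the 14899 genes that reached 1 CPM in 2 or more libraries, in which 8 of the 9 members were tested and HLA-F was not. Against the controls, 1 of 8 was called higher and 2 of 8 lower in the early stage lines, beside 6.39% of all genes tested called higher and 7.89% called lower. The 1 called higher was NLRC5, which passed the filter only through the lines in which it was high, so that nothing is read from its count. In the late stage lines 0 of 8 were called higher and 1 of 8 lower, where 2.5% and 3.05% of all genes were. At an unadjusted p under 0.05 there were 6 of 8 in the early and 5 of 8 in the late stage lines, beside 50.3% and 42.1% of all genes. DESeq2 called 5 and 4 of 8 at an FDR of 0.005, and 4202 and 2874 of the 14899 genes. The members had a median log2 fold change of -0.48 in the early and -0.62 in the late stage lines, against -0.002 and -0.01 over all genes tested, and NLRC5 was the only one of the 8 above 0 in either comparison. Both comparisons used the same 2 control lines.

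**Figure D1:**
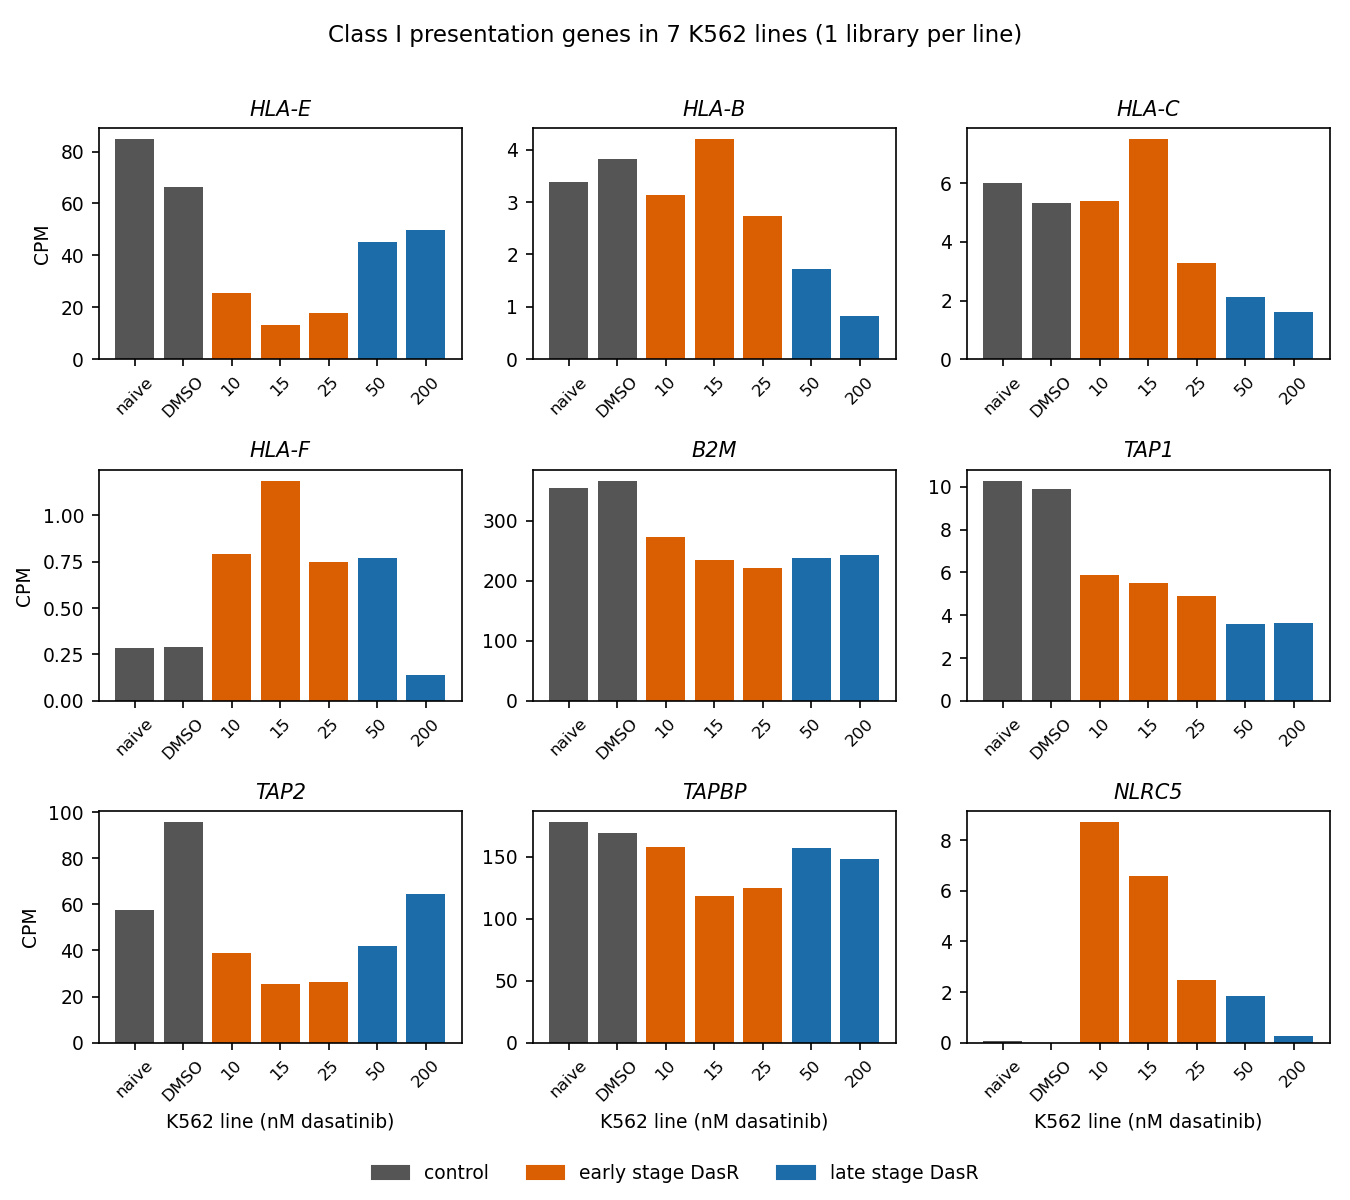
Level of each class I gene in the 7 K562 lines, in CPM on a linear axis from 0, with 1 bar per library (grey, drug naive and DMSO controls; orange, 10, 15 and 25 nM DasR; blue, 50 and 200 nM DasR). HLA-E was lowest in the early stage lines, HLA-B and HLA-C in the late stage lines, TAP1 was below both controls in every DasR line, and NLRC5 was highest at 10 nM, with 8.70 CPM, and near 0 in both controls.

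HLA-E presents peptides cut from the signal sequences of other class I heavy chains and is the ligand of the NK cell receptor CD94-NKG2A. Its gene lies on chromosome 6 from 30457286 to 30461971 (GRCh37, + strand). HLA-E was the most abundant of the 4 HLA members, with 84.8 CPM in the drug naive line and 66.3 CPM in the DMSO line. It measured 25.7, 13.3 and 17.9 CPM in the 10, 15 and 25 nM DasR lines, and 45.1 and 49.7 CPM in the 50 and 200 nM DasR lines. The early stage lines were all below the late stage lines, and these were all below the controls, with no overlap between groups. The early stage level was 4.01-fold lower than the controls (log2 fold change -2.00, SE 0.26, FDR 0.00154). The late stage level was 1.58-fold lower, which did not pass (log2 fold change -0.66, SE 0.29, FDR 0.122). Late stage lines were 2.54-fold above early stage lines (log2 fold change 1.34, SE 0.26, FDR 0.0249). The FDR of the early stage fall was 0.0177 without the drug naive line, 0.00760 without the DMSO line and 0.00865 without the 25 nM DasR line, and under 0.005 without any 1 of the other 4 lines. Of the genes beside HLA-E, TRIM39, RPP21, GNL1 and PRR3 did not pass in the early comparison, with log2 fold changes of -0.19, -0.17, -0.09 and 0.08.

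HLA-B and HLA-C encode the classical heavy chains that present peptides to T cells and bind killer-cell immunoglobulin-like receptors. HLA-B lies on chromosome 6 from 31321649 to 31334844 and HLA-C from 31236526 to 31239907 (GRCh37, both on the - strand). HLA-B measured 3.38 and 3.83 CPM in the drug naive and DMSO lines, 3.13, 4.202 and 2.74 CPM in the 10, 15 and 25 nM DasR lines, and 1.73 and 0.834 CPM in the 50 and 200 nM DasR lines. HLA-C measured 5.998 and 5.32 CPM for the controls, 5.39, 7.51 and 3.29 CPM for early stage lines, and 2.11 and 1.62 CPM for late stage lines. For both genes the early stage lines overlapped the controls, the 15 nM DasR line was the highest of all 7, and both late stage lines were below every other line.

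Early stage lines differed from controls by log2 fold changes of -0.11 (SE 0.34, FDR 0.818) for HLA-B and -0.08 (SE 0.34, FDR 0.876) for HLA-C. Late stage lines were 2.78-fold lower for HLA-B (log2 fold change -1.48, SE 0.39, FDR 0.0288) and 3.003-fold lower for HLA-C (log2 fold change -1.59, SE 0.39, FDR 0.0231). Neither passed an FDR of 0.005 at counts of 18 to 44 reads per late stage library. The late stage value of HLA-B was -2.09 without the 50 nM DasR line and -1.04 without the 200 nM DasR line. Against the early stage lines, HLA-C was 2.85-fold lower in the late stage lines (FDR 0.0420) and HLA-B 2.58-fold lower (FDR 0.0537). For HLA-B this log2 fold change, -1.37, was -1.98 without the 50 nM DasR line and -0.93 without the 200 nM DasR line.

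HLA-F, a nonclassical class I gene whose open conformers bind NK cell receptors, was too low for the filter. It had 6 and 7 counts in the controls, 22, 33 and 15 in the early stage lines, and 16 and 3 in the late stage lines. The early stage lines held 3.20 times the control counts per total (95% exact interval 1.76 to 6.31), and the late stage lines 1.55 times (0.727 to 3.42), and these intervals cover counting error only. With no filter on low counts, HLA-F had a log2 fold change of 1.64 (SE 0.64, FDR 0.0875) in the early stage lines. Its late stage lines differed from each other by more than from the controls, with 0.768 CPM at 50 nM and 0.139 CPM at 200 nM.

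The 4 HLA members together gave 94.5 and 75.7 CPM in the drug naive and DMSO lines, 35.0, 26.2 and 24.6 CPM at 10, 15 and 25 nM, and 49.7 and 52.3 CPM at 50 and 200 nM. The group means were 85.1 ± 13.3 (SD, n = 2) in controls, 28.6 ± 5.59 (SD, n = 3) in early stage lines and 51.0 ± 1.78 (SD, n = 2) in late stage lines. HLA-E made up 89.8% and 87.5% of these reads in the controls, 73.4%, 50.8% and 72.5% in the early stage lines and 90.7% and 95.04% in the late stage lines. The make-up of the heavy chain reads differed most from the controls at 15 nM, where HLA-B and HLA-C together supplied 44.7% of them. Summed over HLA-B and HLA-C, the level was 11.7 CPM in that line and 2.46 CPM in the 200 nM DasR line.

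**Figure D2:**
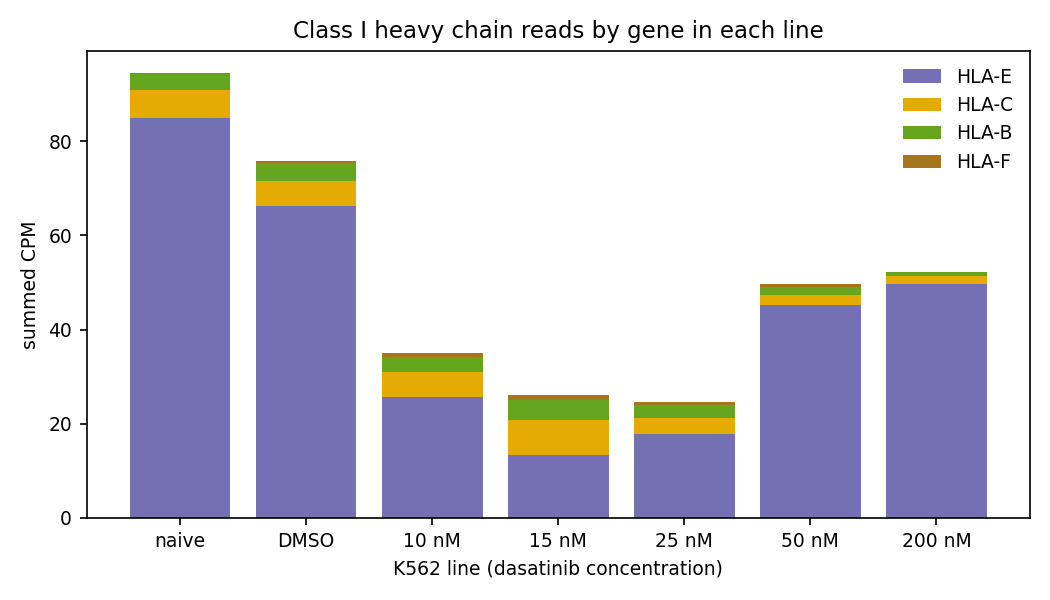
Summed CPM of HLA-E, HLA-C, HLA-B and HLA-F in each of the 7 K562 lines, stacked by gene on a linear axis from 0. The early stage lines had the lowest sums, between 24.6 and 35.0 CPM, and the HLA-E portion was smallest at 15 nM, while the HLA-B and HLA-C portions were smallest at 50 and 200 nM.

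B2M, the light chain shared by all class I molecules, was the most abundant member. Its gene lies on chromosome 15 from 45003556 to 45011049 (GRCh37, + strand). It measured 355.1 and 366.9 CPM in the drug naive and DMSO lines, 273.0, 234.5 and 222.2 CPM for early stage lines, and 238.2 and 243.8 CPM for late stage lines. All 5 DasR lines were below both controls, and the early and late stage ranges overlapped. B2M fell 1.49-fold in the early stage lines (log2 fold change -0.58, SE 0.10, FDR 0.00471). It was 1.48-fold lower in the late stage lines, with an FDR of 0.0114 (log2 fold change -0.57, SE 0.11), and late and early stage lines differed by a log2 fold change of 0.01 (FDR 0.966). The early stage call stood close to the threshold. Its FDR was 0.0323 without the drug naive line, 0.0255 without DMSO, 0.0175 without 15 nM, 0.0209 without 25 nM, 0.00643 without 50 nM and 0.00628 without 200 nM, and it passed without the 10 nM line.

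TAP1 and TAP2 form the heterodimer that pumps peptides into the endoplasmic reticulum. TAP1 lies on chromosome 6 from 32812986 to 32821593 and TAP2 from 32789610 to 32806516 (GRCh37, both on the - strand), beside the immunoproteasome genes PSMB8 and PSMB9. TAP1 measured 10.3 and 9.90 CPM in the drug naive and DMSO lines, 5.86, 5.49 and 4.89 CPM at 10, 15 and 25 nM, and 3.60 and 3.66 CPM at 50 and 200 nM. The 3 groups did not overlap, with controls highest and late stage lines lowest. TAP1 fell 2.75-fold in the late stage lines (log2 fold change -1.46, SE 0.20, FDR 0.00309). The early stage lines were 1.87-fold lower (log2 fold change -0.91, SE 0.17, FDR 0.00604), which did not pass, and late against early stage gave an FDR of 0.0874. Leaving out any 1 of the 7 lines ended the late stage call, with an FDR of 0.0253 without the drug naive line, 0.0161 without DMSO, 0.00559 without 10 nM, 0.00641 without 15 nM, 0.00870 without 25 nM, 0.0125 without 50 nM and 0.0132 without 200 nM. The annotated span of PSMB9 overlaps TAP1 on the opposite strand, and the strand setting of the counting is not given in the sources used here, so that reads from the shared stretch cannot be told apart.

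TAP2 followed another order. It measured 57.4 and 95.5 CPM in the drug naive and DMSO lines, 39.1, 25.2 and 26.1 CPM for early stage lines, and 41.8 and 64.3 CPM for late stage lines. The early stage lines were all below the controls and the late stage lines, while the late stage lines overlapped the controls. TAP2 was 2.54-fold lower in the early stage lines, with an FDR of 0.00915 that did not pass (log2 fold change -1.34, SE 0.29), and had a log2 fold change of -0.51 (FDR 0.262) in the late stage lines. The late stage value moved with single lines, to -0.14 without DMSO, -0.82 without the drug naive line, -0.23 without 50 nM and -0.85 without 200 nM. In the annotation, 35.0% of the 75-base windows of the TAP2 transcript also occur in a readthrough transcript of the same locus, so that TAP2 reads could have been split or dropped by the counting. For the other members this share was between 0% and 2.30%.

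TAPBP, which bridges TAP and the heavy chain, was the second most abundant member. It measured 177.8 and 169.2 CPM for the controls, 158.0, 118.1 and 124.8 CPM for early stage lines, and 156.8 and 148.1 CPM for late stage lines. Both controls were above all DasR lines, and no comparison passed, with log2 fold changes of -0.39 (SE 0.14, FDR 0.0551) in the early and -0.17 (SE 0.15, FDR 0.412) in the late stage lines.

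NLRC5 lies on chromosome 16 from 57023397 to 57117443 (GRCh37, + strand) and was the only one of the 8 tested members called higher. The drug naive line had 1 count of it, and the DMSO line 0 counts, which allows up to 0.125 CPM. The 10, 15 and 25 nM DasR lines held 242, 183 and 50 counts, and the 50 and 200 nM lines 38 and 6, or 8.70, 6.57, 2.49, 1.82 and 0.278 CPM in that order. The 3 groups did not overlap, and the level was lower at each higher dose among the 5 DasR lines. Per total count, the early stage lines held 283 times the control level (95% exact interval 50.5 to 11190) and the late stage lines 46.7 times (7.96 to 1887). The early stage lines held 6.05 times the late stage level (4.44 to 8.44). These intervals, and those of PSMB8, pool the reads of separate lines and cover counting error only. The 50 nM DasR line supplied 38 of the 44 late stage counts. Without it the fitted log2 fold change of the late stage lines was 3.38 against controls, in place of 5.26, and -4.37 against early stage lines, in place of -2.48. Without the 200 nM DasR line these values were 6.07 and -1.68, and without the drug naive or DMSO line the late stage value was 7.66 or 4.29.

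In the fit, NLRC5 had a log2 fold change of 7.74 (SE 1.34, FDR 0.00417) in the early stage lines and of 5.26 (SE 1.53, FDR 0.0391) in the late stage lines, and both values depend on the prior count because the controls were almost empty. NLRC5 passed the filter only through the lines in which it was high. Its early stage FDR was 0.0352 without the drug naive line, 0.0380 without DMSO, 0.00872 without 10 nM, 0.0107 without 15 nM and 0.00688 without 25 nM, and under 0.005 without either late stage line. Without the drug naive line the log2 fold change was 10.1, against a single control with 0 counts. Of its neighbours on chromosome 16, HERPUD1, an endoplasmic reticulum stress gene, fell in both the early (log2 fold change -2.13, FDR 0.000268) and the late stage lines (-1.29, FDR 0.00392), CPNE2 did not pass (1.09, FDR 0.00877, early), FAM192A had values of 0.16 and 0.12 without a call, and CETP was at or below 0.0480 CPM.

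**Figure D3:**
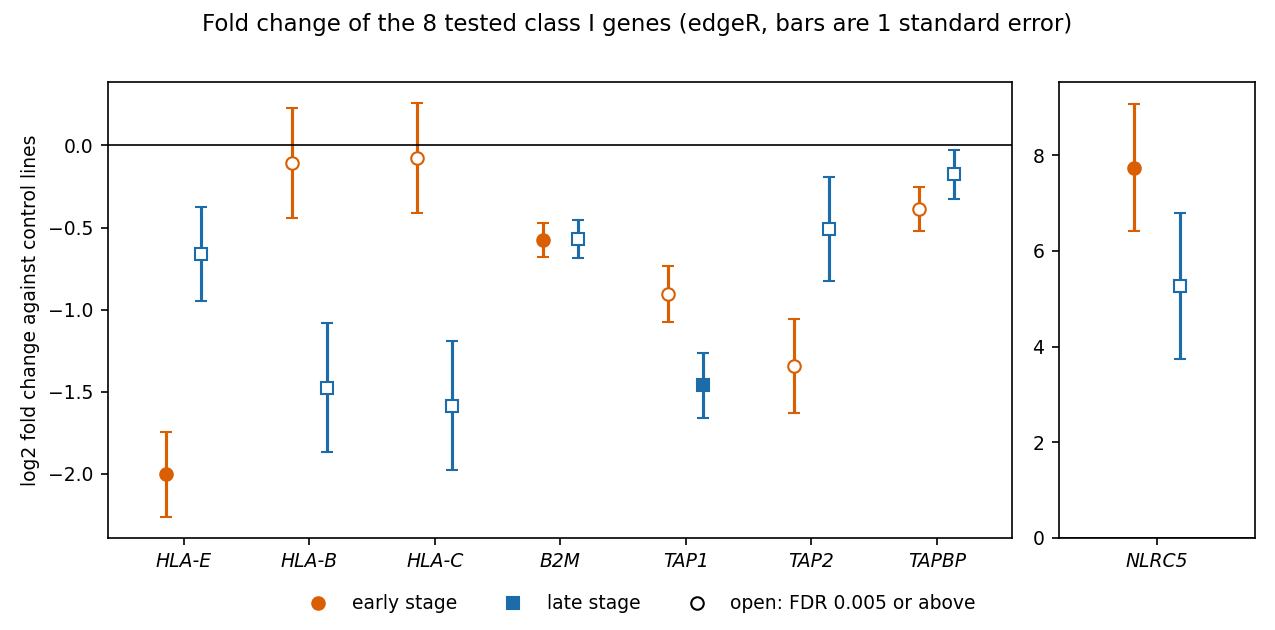
Log2 fold change of the 8 tested class I genes against the controls in early stage (orange circles) and late stage lines (blue squares), with bars of 1 standard error from edgeR. Filled symbols had an FDR below 0.005, namely HLA-E, B2M and NLRC5 in the early and TAP1 in the late stage lines, and NLRC5 has an axis of its own on the right.

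The transcripts differ in length, so levels were compared between genes as CPM per kilobase of the canonical transcript. In the controls the order of the means was B2M, TAPBP, HLA-E, TAP2, TAP1, HLA-C, HLA-B, HLA-F and NLRC5. B2M stood at 383 ± 8.83 CPM per kilobase (SD, n = 2), TAPBP at 50.3 ± 1.77 and HLA-E at 29.7 ± 5.15, and TAP1 (3.76 ± 0.100) and HLA-C (3.67 ± 0.309) did not differ beyond their spread. In the early stage lines HLA-E, at 7.43 ± 2.46, and TAP2, at 5.34 ± 1.37 (SD, n = 3), overlapped, and so did HLA-C, HLA-B and TAP1. In the late stage lines HLA-E stood at 18.6 ± 1.25 and TAP2 at 9.40 ± 2.83, while TAP1 at 1.35 ± 0.0154 and HLA-C at 1.21 ± 0.225 (SD, n = 2) again did not differ beyond their spread. HLA genes are highly polymorphic, how well the alleles of K562 match the hg19 reference was not tested, and the levels of HLA genes carry that limit.

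**Figure D4:**
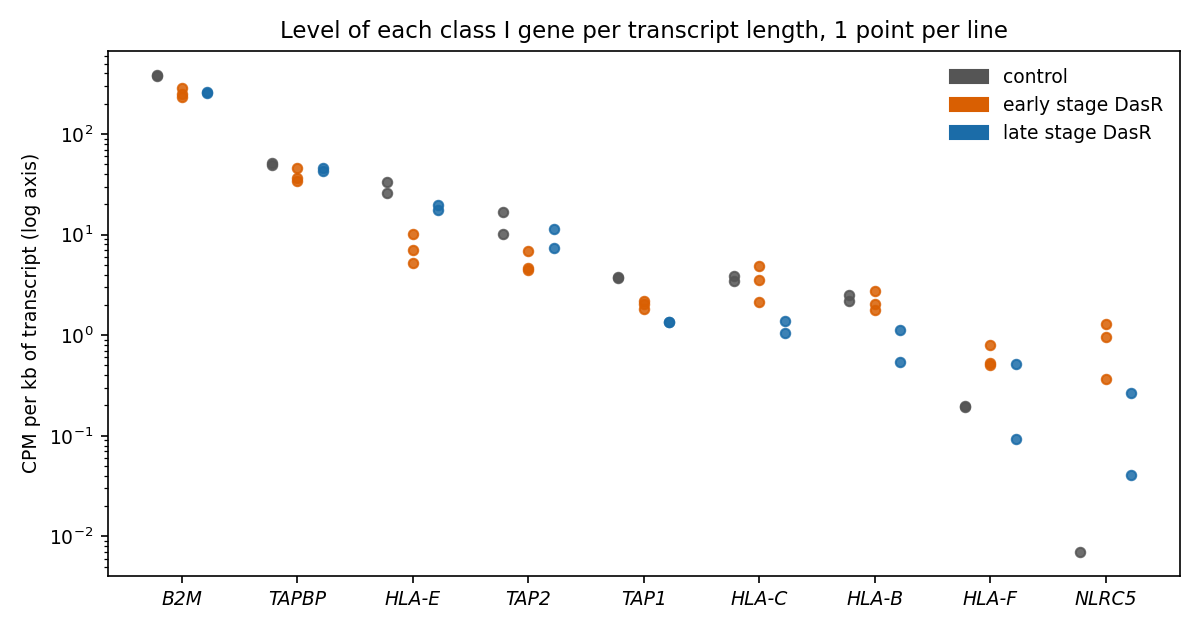
Level of each class I gene per kilobase of canonical transcript on a log axis, with 1 point per line and genes ordered by their control mean (grey, controls; orange, early stage; blue, late stage). B2M exceeded every other gene in all lines, and NLRC5 spanned the widest range, with the DMSO line, at 0, not drawn.

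HLA-B and HLA-C had similar profiles, and their promoters are shown beside those of the light chain gene B2M and of TAP1, the member called in the late stage lines. The sequences are the 250 bases before a RefSeq start site in GRCh38.p14, read 5′ to 3′ on the strand of the gene. Capitals mark the letters AANNGAAA, a core of interferon-stimulated response elements, and CCAATCAG, a core of the Y box bound by NF-Y, on either strand.
HLA-B: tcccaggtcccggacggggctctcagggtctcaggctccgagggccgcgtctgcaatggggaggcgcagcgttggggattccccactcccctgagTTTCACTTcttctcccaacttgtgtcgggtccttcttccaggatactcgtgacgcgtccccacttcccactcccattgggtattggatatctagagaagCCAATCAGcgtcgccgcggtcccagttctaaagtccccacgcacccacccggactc
HLA-C: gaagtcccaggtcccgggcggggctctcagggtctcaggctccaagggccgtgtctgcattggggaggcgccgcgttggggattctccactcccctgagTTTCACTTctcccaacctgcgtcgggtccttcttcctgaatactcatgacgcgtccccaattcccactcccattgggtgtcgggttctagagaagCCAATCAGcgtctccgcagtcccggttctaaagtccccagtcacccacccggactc
B2M: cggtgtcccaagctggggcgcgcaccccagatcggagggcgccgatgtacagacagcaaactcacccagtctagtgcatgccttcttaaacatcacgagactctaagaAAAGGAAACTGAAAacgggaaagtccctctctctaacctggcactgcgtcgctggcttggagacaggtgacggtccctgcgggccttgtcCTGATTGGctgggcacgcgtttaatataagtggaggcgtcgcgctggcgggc
TAP1: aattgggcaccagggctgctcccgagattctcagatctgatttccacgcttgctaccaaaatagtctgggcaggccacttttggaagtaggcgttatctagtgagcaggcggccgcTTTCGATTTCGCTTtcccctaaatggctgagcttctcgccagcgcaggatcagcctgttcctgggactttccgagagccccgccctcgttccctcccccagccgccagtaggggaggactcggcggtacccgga
These windows are chr6:31357180-31357429 and chr6:31272093-31272342 (both - strand), chr15:44711267-44711516 (+ strand) and chr6:32853705-32853954 (- strand). CCAATCAG began 56 bases before the start in HLA-B and HLA-C, and the match on the other strand 52 bases before it in B2M, whereas 3.81% of all 35116 RefSeq promoter windows of this length hold it. AANNGAAA was present in all 4 windows shown and in 20.3% of all windows, as 2 matches that overlap by 2 letters in B2M and TAP1. TAP1 has another RefSeq start site, whose window (chr6:32852762-32853011) held neither motif, and the windows of PSMB8 and PSMB9 held neither as well. HLA-F held both motifs as well, and TAP2 and TAPBP held AANNGAAA without CCAATCAG. A match describes letters and is not a binding site. HLA-E and NLRC5 have no entry in the table used.

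The other genes of the pathway were examined as lists. Among 20 class I and class I-like genes, 13 were tested, of which HLA-E fell and ULBP2 rose in the early stage lines and 0 were called in the late stage lines, with median log2 fold changes of -0.08 and -0.20. Over all genes tested, 6.39% were called higher and 7.89% lower in the early, and 2.5% and 3.05% in the late stage lines. In the late stage lines 4 of the 13 had an unadjusted p under 0.05, beside 42.1% of all genes, and DESeq2 called 2, beside 2874 of the 14899 genes. ULBP2, a stress-induced ligand of the activating NK receptor NKG2D, measured 1.86 and 1.17 CPM for the controls and 7.19, 13.8 and 9.47 CPM for early stage lines (log2 fold change 2.74, SE 0.37, FDR 0.00181). It measured 7.15 and 9.31 CPM for late stage lines, with an FDR of 0.00520. The DasR lines were all above the controls for ULBP2. The same held for its close relatives RAET1G and RAET1L, which were too low for the filter. RAET1G had 1 and 2 counts in the controls, 7, 21 and 13 in the early and 9 and 10 in the late stage lines. RAET1L had 2 and 0 counts in the controls, 5, 27 and 11 in the early and 8 and 10 in the late stage lines. The 3 genes are alike in sequence, and the counting could have split their reads. ULBP1 was lower in every DasR line (17.8 to 24.3 CPM) than in the controls (28.7 and 25.9 CPM), without a call, ULBP3 had 2 and 4 counts in the controls, 20, 16 and 2 in the early and 4 and 0 in the late stage lines, and MICA and MICB, also NKG2D ligands, did not pass in either comparison.

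The peptide supply list holds proteasome subunits, activators and trimming peptidases, and all 17 were tested. In the early stage lines PSMB8 fell and PSMB5 rose, and in the late stage lines PSMB8 alone was called, with list medians of -0.12 and 0.09. These counts of 1 in 17 are near the shares over all genes, 6.39% higher and 7.89% lower in the early and 3.05% lower in the late stage lines. PSMB8 replaces the constitutive subunit PSMB5 in the immunoproteasome, and it lies on chromosome 6 from 32808494 to 32812456 (GRCh37, - strand), between TAP2 and TAP1. PSMB8 had 34 and 64 counts in the drug naive and DMSO lines, 0, 0 and 1 in the early stage lines and 0 and 0 in the late stage lines. The controls held 165 times the early stage level per total count (95% exact interval 28.9 to 6572), and the late stage lines were at least 30.8-fold lower than the controls, with the floor taken as 3 counts over the group. Its FDR was 0.00158 in the early and 0.00449 in the late stage lines, but PSMB8 passed the filter only through the controls, where it was high, and the fitted fold changes depend on the prior count.

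PSMB5 measured 90.7 and 93.7 CPM for the controls and 135.8, 163.3 and 139.5 CPM for early stage lines (log2 fold change 0.66, SE 0.11, FDR 0.00347). PSMB9, the other immunoproteasome subunit of the locus, measured 1.14 and 1.498 CPM for the controls, 1.08, 0.503 and 0.249 CPM for early stage lines, and 0.240 and 0.0463 CPM for late stage lines. Its late stage FDR was 0.0310, and it did not pass. PSMB10, the immunoproteasome subunit encoded elsewhere, stood between 11.5 and 17.9 CPM without a call. PSMB8 and PSMB9 overlap on opposite strands, and the same limit on strand holds for them.

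In the loading complex list all 11 genes were tested, of which 2 fell in the early and 3 in the late stage lines and 0 rose, beside 7.89% and 3.05% of all genes called lower, with medians of -0.58 and -0.34. HSPA5, the chaperone BiP, fell from 1793 and 1512 CPM for the controls to between 403.5 and 448.2 CPM for early stage lines (log2 fold change -1.99, SE 0.11, FDR 9.17e-05) and to 550.8 and 529.2 CPM for late stage lines (-1.60, SE 0.12, FDR 0.000642). PDIA3, the oxidoreductase ERp57 of the loading complex, fell by 0.90 on the log2 scale in the early (FDR 0.000805) and by 0.73 in the late stage lines (FDR 0.00411). TAP1 was the third gene called in the late stage lines. For HSPA5 and PDIA3 the controls did not overlap either DasR group.

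The transcription list holds NLRC5, CIITA and the enhanceosome factors, and 9 of 10 were tested. NLRC5 and NFYA rose in the early stage lines and 0 fell, beside 6.39% of all genes called higher and 7.89% called lower. NLRC5 passed the filter only through its high lines, so that nothing is read from its count. Late stage calls were 0, where 2.5% of all genes were called higher and 3.05% lower. There 5 of the 9 had an unadjusted p under 0.05, beside 42.1% of all genes, and DESeq2 called 3, beside 2874 of all 14899. The list medians were -0.08 and -0.25. NFYA, the DNA-binding subunit of NF-Y, measured 48.2 and 50.4 CPM for the controls and 85.7, 83.7 and 82.5 CPM for early stage lines (log2 fold change 0.76, SE 0.11, FDR 0.00266). NFYB (log2 fold change -0.67, FDR 0.00533) and RFX5 (-0.65, FDR 0.0165) did not pass. CIITA, the class II transactivator, stayed at or below 0.381 CPM. Of 13 class II genes 10 were under 1 CPM in every line, and the 2 tested, CTSS and HLA-DOB, were not called in either comparison.

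Among 23 genes of interferon and NF-kappaB signalling, 22 were tested, of which 5 fell and 1 rose in the early stage lines and 0 were called in the late stage lines, beside 7.89% of all genes lower and 6.39% higher in the early stage lines. In the late stage lines 8 of the 22 had an unadjusted p under 0.05, beside 42.1% of all genes, DESeq2 called 3, beside 2874 of all 14899, and the medians were -0.12 and -0.03. NFKB2 (log2 fold change -1.62, FDR 0.00245), STAT3 (-1.44, FDR 0.000938), IRF9 (-0.83, FDR 0.00435), JAK1 (-0.76, FDR 0.00181) and STAT2 (-0.62, FDR 0.00178) fell, and IFNAR1, a type I interferon receptor chain, rose (0.67, FDR 0.00190). STAT3 measured 327.7 and 289.6 CPM for the controls, 120.2, 97.4 and 126.4 CPM for early stage lines and 210.9 and 279.1 CPM for late stage lines, an order of groups like that of HLA-E. IRF1, which carries interferon signals to class I genes, did not pass.

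Of 32 interferon-stimulated genes, 19 were tested, with 4 lower and 1 higher in the early stage lines, beside 7.89% and 6.39% of all genes, and, of late stage calls, 2 higher and 0 lower, where 2.5% and 3.05% of all genes were. IFITM2 (log2 fold change -3.58, FDR 0.00217), IFITM3 (-2.59, FDR 0.000448), IFI35 (-1.57, FDR 0.00195) and PARP9 (-1.25, FDR 0.00377) fell in the early stage lines. GBP4 rose from 9.09 and 8.74 CPM for the controls to between 33.8 and 82.8 CPM for early stage lines (FDR 0.00496) and to 223.3 and 96.2 CPM for late stage lines (log2 fold change 4.18, FDR 0.00309), where BST2 rose too (1.09, FDR 0.00416). OAS1 was at 0 counts in every line. The list did not move 1 way, with medians of 0.15 and 0.11.

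All 21 genes listed as silencers or degraders of class I were tested, of which 1 rose and 2 fell in each comparison, with medians of -0.07 and 0.11. Over all genes 6.39% rose and 7.89% fell in the early, and 2.5% and 3.05% in the late stage lines, and the early stage counts of the list are near those shares. DNMT3A, a DNA methyltransferase, rose in the early (log2 fold change 0.88, FDR 0.00148) and late stage lines (0.94, FDR 0.00273). NBR1, an autophagy receptor for class I, fell in both (-1.14, FDR 0.000252, and -0.90, FDR 0.00171). SUZ12, a core subunit of the Polycomb complex PRC2, fell in the early stage lines (-0.74, FDR 0.00263) and the signal peptide peptidase HM13 in the late stage lines (-0.81, FDR 0.00229), while EZH2 and EED, the other core subunits of PRC2, did not pass.

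**Figure D5:**
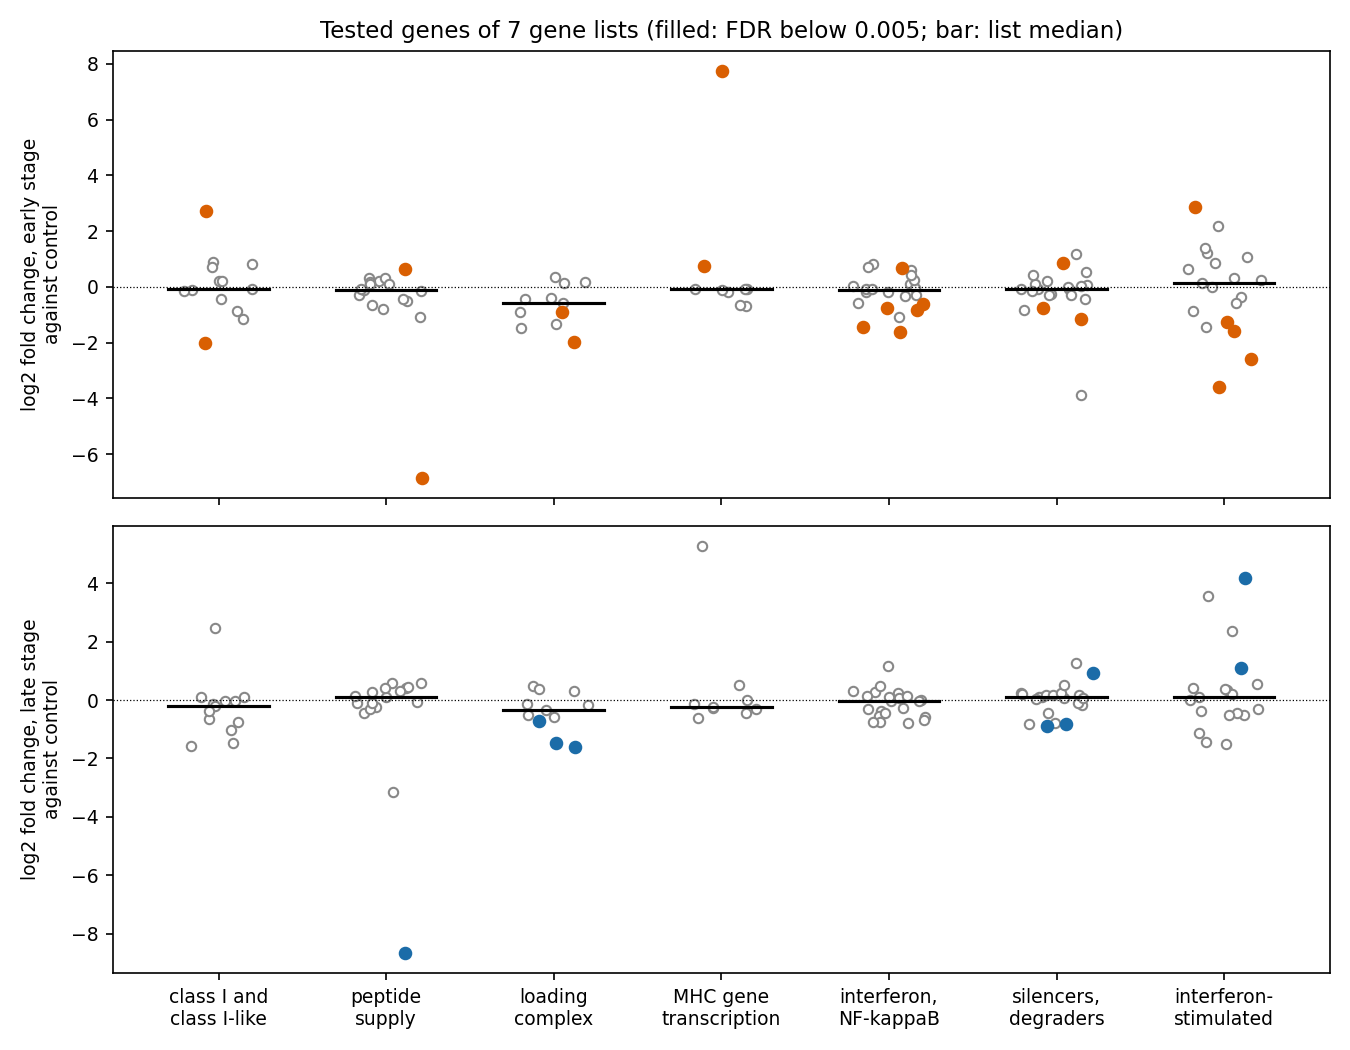
Log2 fold change against the controls of each tested gene in 7 gene lists, in early stage (top) and late stage lines (bottom), with 1 point per gene and the list median as a black bar. Filled points had an FDR below 0.005, and list medians lay between -0.58 and 0.15, whereas NLRC5 at 7.74 and PSMB8 at -6.85 stood farthest from 0 in the early stage lines.

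Between late and early stage lines 0 of 8 members and 0.0% of the 14899 genes passed an FDR of 0.005 by edgeR's quasi-likelihood test. At an unadjusted p under 0.05 there were 6 of 8 members and 4722 genes (31.7%), and DESeq2 called 2 members and 1410 genes at an FDR of 0.005. At an FDR of 0.05, 2 of 8 members, HLA-C and HLA-E, differed between the stages, beside 11.5% of all genes. The FDR of HLA-C passed 0.05 in 1 of 7 fits that each left out a line, without the 25 nM DasR line, and lay between 0.0621 and 0.229 in the others. The FDR of HLA-E was 0.0708 without the 25 nM and 0.130 without the 200 nM DasR line. The 2 genes differed in opposite directions, with HLA-C lower and HLA-E higher in the late stage lines. With the 10 CPM limit of the study, 10452 genes and only HLA-E, B2M, TAP2 and TAPBP were tested. HLA-E and B2M were called lower in the early stage lines, where 18.0% of all genes were called in either direction, and 0 of 4 were called in the late stage lines, where 7.98% were. With the 5 DasR lines as 1 group, 0 of 8 members passed, beside 5.71% of all genes, and 5 of 8 had an unadjusted p under 0.05, beside 40.4% of all genes.

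Other measures moved with the groups. The summed level of the 13 erythroid markers was 4160 and 3746 CPM for the controls, 12340, 13880 and 10790 CPM for early stage lines and 6961 and 4996 CPM for late stage lines, highest in the lines where HLA-E was lowest. Of these markers 5 rose in the early stage lines, beside 6.39% of all genes, among them HBA2 (log2 fold change 3.52, FDR 0.00320) and the transferrin receptor TFRC (1.13, FDR 0.000785), which rose in the late stage lines too (0.89, FDR 0.00390). The part of these markers in the class I values was not tested. Marker lists of other cell types stayed low, with sums from 5.24 to 35.7 CPM for T and NK cells (CD3D the most abundant), 28.01 to 109.2 CPM for monocytes and macrophages (LYZ), 6.11 to 19.8 CPM for fibroblasts (COL1A1) and 4.02 to 38.6 CPM for endothelium (VWF). COL1A2 of the fibroblast list was called, lower in the early stage lines (log2 fold change -5.26, FDR 0.00470), and it passed the filter only through the controls.

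Profiles over the 7 lines were compared by Pearson's r of log2 CPM as a description. All points share the same 7 libraries, and the genes named are the 3 with the highest r among all genes tested. HLA-B and HLA-C had an r of 0.94 with each other, HLA-E an r of 0.91 with TAPBP and of 0.88 with TAP2, and B2M an r of 0.90 with TAP1. NLRC5 had an r of -0.87 with HLA-E and of 0.12 with HLA-B. The profiles most like NLRC5 were those of GSTM3, LOXL2 and the fetal globin gene HBG1, with an r of 0.998, 0.996 and 0.995. HLA-E was closest to TNNT1, HPCAL1 and USP48, HLA-B to SPOCK2, CCDC39 and NKAPP1, and HLA-C to KCTD19, SIM2 and EVI5L. B2M was closest to PLTP, ALDH3B1 and MTL5, TAP1 to RPL23A, ANKRD24 and P2RY8, TAP2 to STAG3L2, ATAD1 and HMMR, and TAPBP to BTN2A3P, TMEM106B and FHIT. Ranked by Spearman's rho instead, all 3 genes stayed for HLA-E and NLRC5, 2 for TAP2, 1 for TAP1 and 0 for HLA-B, HLA-C, B2M and TAPBP. A gene was counted as staying if its rho reached the 3rd highest value, and each gene that stayed had a rho of 1.0. Over 7 lines many genes can tie at that rho, so that the names can depend on the measure for every member.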

How the data were processed

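RNA of 7 K562 lines was sequenced with 1 library each. Libraries were ribosomal RNA depleted, made with a directional kit and sequenced as paired 75-base reads, and reads were aligned by the authors to hg19 with STAR. The authors deposited whole-number read counts per gene for 25702 gene IDs, without normalization, and the labels name featureCounts. FDR values, p-values and log2 fold changes in the deposited comparison tables hold the authors' own results and were not used, only their symbols. No per-sample column was left unused.

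Genes that reached 1 CPM in 2 or more libraries (14899), or 10 CPM as in the study (10452), went into edgeR's quasi-likelihood fit (version 4.0.16, R 4.3.3) after TMM scaling, with a coefficient for each of the groups, all 7 libraries and Benjamini-Hochberg adjustment over all genes at 0.005. The biological coefficient of variation was 0.19. Log2 CPM used a prior count of 2. Ratios of low counts have exact 95% intervals, and 3 counts were taken as the floor. DESeq2 1.42.0 was an alternative. On simulated counts for 14899 genes, early against control, 200 genes were changed by a log2 value of 2, and of the 198 called 0 were unchanged genes. The simulated libraries were independent of each other and had 1 dispersion, 0.036, for all genes. The lines share a lineage and genes differ in spread, so that the simulation cannot tell how many calls in these data are false. Symbols came from the deposited tables and RefSeq for 23738 IDs, positions of 22855 from a GRCh37 annotation (GENCODE), and promoters from RefSeq (GRCh38.p14).

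The members, gene lists and markers were chosen with earlier results of these data known. By rule, up to 4 genes with the largest absolute log2 fold change among those called are named per list and comparison, and the 3 genes most like each member. STAT2, IFNAR1, PARP9 and other genes named outside that rule, and genes without a call, were chosen after their values were seen. P-values measure the spread between lines of a group, which are stages of an escalation and not repeat cultures. A few genes of the lists are not reported here by name.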

Additional observations from a re-analysis of the deposited data

Results flagged for a closer look

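HLA-C and HLA-E differed between the late and early stage lines by the test of the difference itself, at an FDR below 0.05 and above 0.005. At an FDR below 0.05, 11.5% of all genes tested differed as well. The stage groups were drawn from clustering of the same libraries, so that the test is not independent of how they were formed. Late against early, the log2 fold change of HLA-C was -1.51 (FDR 0.0420 by edgeR), that is, lower in the later lines. HLA-E was higher in the later lines (log2 fold change 1.34, FDR 0.0249 by edgeR). With a line left out in turn, the FDR of HLA-C was between 0.0621 and 0.229 in 6 of 7 fits and 0.0373 without the 25 nM DasR line, and it was 0.0717 with only the 2 groups compared. The FDR of HLA-E was 0.0708 without the 25 nM and 0.130 without the 200 nM DasR line, and under 0.05 without any 1 of the others. Both late stage lines were on the same side of all 3 early stage lines for each gene.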

How the results depend on the processing

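The tests rest on 2 to 3 lines per group, and calls near the threshold moved with single lines. Of 332 values of members under alternatives, 282 kept their direction and side of the threshold. Scaling by DESeq2 size factors changed no call of a member. On the genes of the 10 CPM limit, DESeq2 called 3548 in the early, 2503 in the late and 1135 in the late against early stage comparison. On those of the 1 CPM limit, it added calls for TAP1 (log2 fold change -0.905) and TAP2 (-1.345) early, HLA-C (-1.579), B2M (-0.559) and NLRC5 (5.572) late, and HLA-C (-1.503) and HLA-E (1.353) late against early. At 10 CPM, an FDR of 0.05 gave 4865, 3542 and 1328 genes, against 1881, 834 and 0 at 0.005. At 1 CPM it added TAP1 (-0.906) and TAP2 (-1.344) early, HLA-B (-1.477), HLA-C (-1.586), B2M (-0.570) and NLRC5 (5.263) late, and HLA-C (-1.510) and HLA-E (1.342) late against early. With no filter 1287 genes were called late and 295 late against early, and TAP2 was called early (-1.340). With only the 2 groups compared, 257 genes were called late at 10 CPM, and at 1 CPM B2M early (-0.582) and TAP1 late (-1.461) were not called. With the 5 DasR lines as 1 group HLA-E (-1.316), B2M (-0.575) and NLRC5 (7.165) did not pass. The late against early value of B2M, 0.008, turned to -0.014 with library totals only and to -0.020 at 10 CPM. The cause of these changes was not tested.

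Leaving out each line in turn at 10 CPM gave 187 to 2074 genes early, 30 to 601 late (without the drug naive line the lowest of both) and 0 to 200 late against early. At 1 CPM the log2 fold changes ranged early from -0.297 to 0.011 for HLA-B, from -0.380 to 0.173 for HLA-C, from -2.295 to -1.798 for HLA-E, from -0.672 to -0.520 for B2M and from 6.766 to 10.134 for NLRC5, late from -1.525 to -1.417 for TAP1, and late against early from -0.051 to 0.103 for B2M. No paired analysis was possible because each library is a different dose stage or control, and the labels match no control to a given DasR line.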
